A study of Mus musculus with 6 samples.

Results

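The vascular endothelial growth factor (VEGF) family was followed through 10 genes of 21741 in the count tables, taken by gene symbol: 5 ligands (Vegfa, Vegfb, Vegfc, Vegfd and Pgf), 3 receptor tyrosine kinases (Flt1, Kdr and Flt4) and 2 neuropilins (Nrp1 and Nrp2). All 10 passed the filter on low counts. RNA had been sequenced from mouse primary cardiomyocytes, heart cells cultured directly from the tissue, in 6 libraries. Adv-ABHD11 was the overexpression vector for ABHD11, a mitochondrial hydrolase, and its 3 libraries carried the genotype label ABHD11 overexpression. Adv-NC was the control vector, with 3 libraries labelled WT. Both groups had spent 24 h in hypoxia and carried the same batch number, and cells kept in normal oxygen were not analysed here. No label ties a replicate to its own culture or animal, and p-values therefore cover only the spread among these libraries, which may be technical. The sources used here do not give the promoter of the vectors, the species of the ABHD11 sequence or the age of the animals.

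VEGF ligands are secreted dimers that bind receptor tyrosine kinases on endothelial cells and drive the growth, survival and permeability of vessels. Vegfa signals mainly through Kdr (VEGF receptor 2), while Flt1 (VEGF receptor 1) binds Vegfa, Vegfb and Pgf and can hold Vegfa away from Kdr. Flt4 (VEGF receptor 3) receives Vegfc and Vegfd and is best known from lymphatic vessels. Neuropilins have no kinase of their own, and they bind some VEGF isoforms and class 3 semaphorins as co-receptors. In the heart, muscle cells make much of the ligand and endothelial cells carry most of the receptors.

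The promoters of the member that rose most, the ligand best known as a hypoxia target and the member that fell most are shown, so that the ends of the family's range stand beside its best known hypoxia target. They are the 250 bases upstream of the RefSeq transcript start on GRCm38.p6, 5′ to 3′ on the gene's strand: chr5:75978456-75978705 (minus strand), chr17:46032378-46032627 (minus strand) and chrX:164373272-164373521 (plus strand). Capitals mark the core GCGTG or its reverse complement CACGC, a form of the element bound by hypoxia-inducible factors (HIF).
Kdr: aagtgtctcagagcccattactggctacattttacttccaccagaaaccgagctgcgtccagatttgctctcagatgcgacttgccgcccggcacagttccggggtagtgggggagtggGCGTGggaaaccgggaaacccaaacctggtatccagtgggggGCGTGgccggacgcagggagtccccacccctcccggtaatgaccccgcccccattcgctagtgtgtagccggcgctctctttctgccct
Vegfa: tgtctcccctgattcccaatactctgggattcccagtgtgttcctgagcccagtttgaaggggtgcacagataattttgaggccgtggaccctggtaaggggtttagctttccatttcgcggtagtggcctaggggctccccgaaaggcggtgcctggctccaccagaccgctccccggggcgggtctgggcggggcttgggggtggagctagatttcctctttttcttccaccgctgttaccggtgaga
Vegfd: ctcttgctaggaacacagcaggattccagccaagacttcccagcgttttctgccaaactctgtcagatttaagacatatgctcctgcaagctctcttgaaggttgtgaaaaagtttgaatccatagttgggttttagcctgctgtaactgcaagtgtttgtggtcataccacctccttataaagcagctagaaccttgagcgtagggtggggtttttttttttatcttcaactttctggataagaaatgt
The Kdr window held GCGTG at 131 and 89 bases upstream of the start, counted to the first base of the match, and the Vegfa and Vegfd windows held none. The other HIF form, ACGTG, was in none of these windows, nor was the AP-1 site TGANTCA. The motifs were searched on both strands. Of the other members, Nrp2 and Vegfb held GCGTG 2 times each, Nrp1, Flt1 and Pgf held it 1 time each, and Vegfc and Flt4 held none. A second RefSeq start of Vegfa, at base 46025163 inside the gene, had 1 ACGTG and 1 GCGTG upstream. That start did not match a GENCODE transcript start, and neither did those of Vegfc and Flt4. Of all 32851 windows of this length in the RefSeq table, 28.2% held GCGTG, 16.6% held ACGTG and 6.75% held TGANTCA. A match describes the letters only, and elements outside these 250 bases were not searched.

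Across the family 5 members were higher and 4 lower with Adv-ABHD11, and Vegfc did not pass the test. A gene was called at an adjusted p under 0.05 in edgeR's quasi-likelihood test, adjusted over all 12790 tested genes. Of those, 59.3% were called, 29.9% higher and 29.5% lower, so that calls were common in this comparison. Levels are in CPM, a gene's counts relative to the scaled total of its library. No overlap between groups was seen for 8 of 10 members, against 63.2% of all tested genes. Kdr, Nrp1 and Vegfd, 3 of 10, were called with a difference of at least 2-fold, against 15.6% of all tested genes. The median log2 fold change of the members was 0.25, and that of all tested genes was 0.016.

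**Figure D1:**
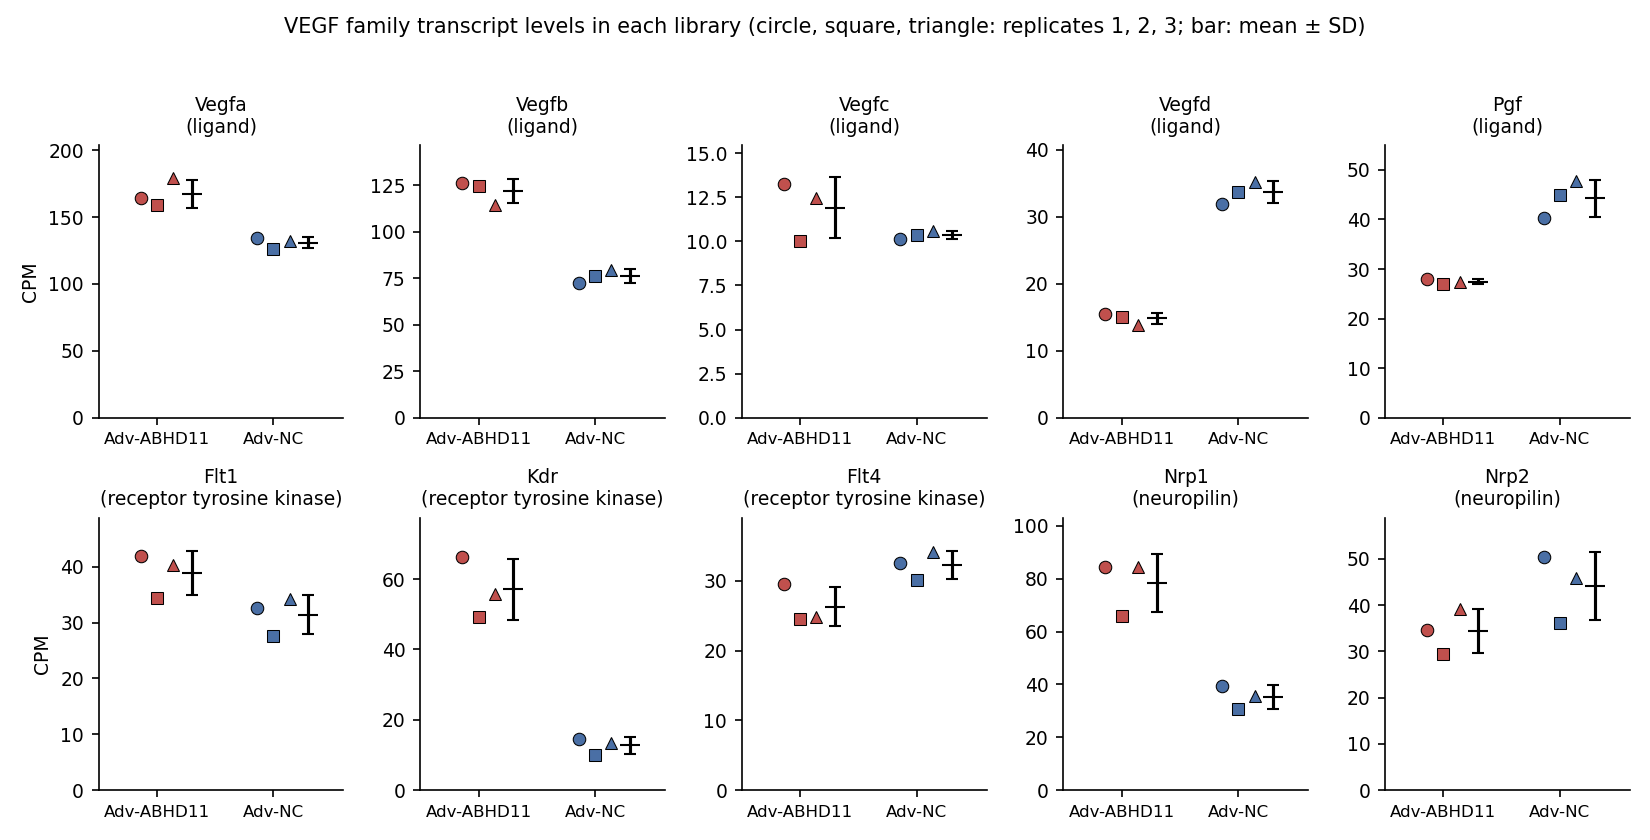
CPM of each member in each library, with the mean and SD of the 3 libraries of a group; every axis starts at 0. Kdr, Nrp1, Vegfd, Pgf and Vegfb stand clear of the other group, Flt1 and Flt4 separate by a narrow margin, and Vegfc and Nrp2 overlap.

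Among the ligands, Vegfa and Vegfb rose while Vegfd and Pgf fell. Vegfa (ENSMUSG00000023951.17, chromosome 17, 46016993 to 46032369, minus strand, GRCm38), the main angiogenic ligand, had 164.0, 158.9 and 179.3 CPM in the Adv-ABHD11 libraries, against 134.2, 126.4 and 132.3 CPM in the Adv-NC libraries. The lowest Adv-ABHD11 library was above the highest Adv-NC library. The difference was 1.28-fold with a 95% interval of 1.13 to 1.45 (edgeR adjusted p = 0.00167), from 2743 to 3646 counts per Adv-ABHD11 library and 2424 to 2578 per Adv-NC library. Vegfb (ENSMUSG00000024962.13, chromosome 19, 6982473 to 6987651, minus strand), a ligand of Flt1 that is abundant in heart muscle, had 126.2, 124.5 and 114.5 CPM with Adv-ABHD11, against 72.3, 76.2 and 79.6 CPM with Adv-NC. It rose 1.6-fold (interval 1.41 to 1.82, edgeR adjusted p = 2.78e-06), again without overlap.

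Vegfd (ENSMUSG00000031380.10, X chromosome, 164373378 to 164402650, plus strand) is a ligand of Flt4 that was first cloned as a Fos-induced growth factor. It had 15.5, 15.1 and 13.9 CPM with Adv-ABHD11, against 31.9, 33.7 and 35.2 CPM with Adv-NC. Every Adv-ABHD11 library was below every Adv-NC library, and Vegfd was 2.27-fold lower (interval 1.94 to 2.65, edgeR adjusted p = 3.84e-08). Fos itself, an AP-1 subunit named here after its values were seen, was at 7.04 ± 0.796 CPM with Adv-ABHD11 and 56.2 ± 5.28 CPM with Adv-NC (SD, n = 3 each), 7.98-fold lower. Whether the 2 differences are linked was not tested.

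Pgf (ENSMUSG00000004791.7, chromosome 12, 85166635 to 85177790, minus strand), the placental growth factor that binds Flt1, had 28.0, 26.9 and 27.3 CPM with Adv-ABHD11, against 40.3, 44.8 and 47.7 CPM with Adv-NC. The groups did not overlap, and Pgf was 1.62-fold lower (interval 1.40 to 1.87, edgeR adjusted p = 1.16e-05). Vegfc (chromosome 8, 54077606 to 54187096, plus strand), the other ligand of Flt4, was at 13.3, 10.01 and 12.5 CPM with Adv-ABHD11 and at 10.1, 10.4 and 10.6 CPM with Adv-NC. Adv-ABHD11 replicate 2 lay below all Adv-NC libraries, and the 95% interval of the ratio ran from 0.934 to 1.42 (edgeR adjusted p = 0.235). Vegfc had 181 to 254 counts per library, the fewest of the family except in Adv-NC replicate 2, where Kdr had 192 and Vegfc 199.

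Of the receptor tyrosine kinases, Kdr changed most, and Flt1 and Flt4 moved little and in opposite directions. Kdr (ENSMUSG00000062960.10, chromosome 5, 75932827 to 75978458, minus strand), the chief signalling receptor for Vegfa, had 66.4, 49.2 and 55.8 CPM with Adv-ABHD11, against 14.7, 10.01 and 13.5 CPM with Adv-NC. The lowest Adv-ABHD11 library was far above the highest Adv-NC library. Kdr rose 4.49-fold (interval 3.66 to 5.50, edgeR adjusted p = 3.89e-10), and 370 tested genes had a larger log2 fold change in either direction. Flt1 (ENSMUSG00000029648.13, chromosome 5, 147561604 to 147726011, minus strand) had 41.9, 34.3 and 40.3 CPM with Adv-ABHD11, against 32.6, 27.5 and 34.2 CPM with Adv-NC. The groups nearly touched, and Flt1 was 1.23-fold higher (interval 1.05 to 1.45, edgeR adjusted p = 0.0249). Flt4 (ENSMUSG00000020357.3, chromosome 11, 49609263 to 49652739, plus strand) had 29.5, 24.5 and 24.8 CPM with Adv-ABHD11, against 32.6, 30.04 and 34.1 CPM with Adv-NC. The highest Adv-ABHD11 library was just below the lowest Adv-NC library, and Flt4 was 1.23-fold lower (interval 1.05 to 1.44, edgeR adjusted p = 0.0246).

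The calls of Flt1 and Flt4 depended on single libraries, and that of Flt4 also on the scaling. Flt1 did not pass without Adv-ABHD11 replicate 1 (edgeR adjusted p = 0.101), Adv-ABHD11 replicate 3 (0.101) or Adv-NC replicate 2 (0.158), when its log2 fold change was 0.25, 0.27 and 0.20. Flt4 did not pass with upper-quartile scaling or library size only, nor without Adv-ABHD11 replicate 2 or 3 or Adv-NC replicate 1 or 3, with adjusted p between 0.055 and 0.136. Counts per gene do not separate the membrane receptor from the soluble form of Flt1, or the splice forms of Vegfa.

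The neuropilins went opposite ways. Nrp1 (ENSMUSG00000025810.9, chromosome 8, 128358604 to 128503363, plus strand), a co-receptor that strengthens Vegfa binding to Kdr and also binds Sema3a, had 84.6, 65.9 and 84.6 CPM with Adv-ABHD11, against 39.5, 30.7 and 35.5 CPM with Adv-NC. The groups stood well apart, and Nrp1 rose 2.23-fold (interval 1.88 to 2.63, edgeR adjusted p = 1.38e-07). Nrp2 (ENSMUSG00000025969.15, chromosome 1, 62703285 to 62818695, plus strand), a co-receptor for Vegfc and Sema3f, had 34.6, 29.5 and 39.2 CPM with Adv-ABHD11, against 50.5, 36.0 and 45.9 CPM with Adv-NC. The ranges overlapped, since Adv-ABHD11 replicate 3 exceeded Adv-NC replicate 2. Nrp2 was called 1.28-fold lower (interval 1.07 to 1.54, edgeR adjusted p = 0.0216), and the call was lost under 2 other scalings (upper-quartile and library size) and when Adv-ABHD11 replicate 2, Adv-NC replicate 1 or Adv-NC replicate 3 was left out, with adjusted p between 0.0771 and 0.128. An antisense gene, Gm29083, lies within Nrp2, and reads from it cannot be told apart from those of Nrp2 unless counting used strand, which the sources used here do not give.

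**Figure D2:**
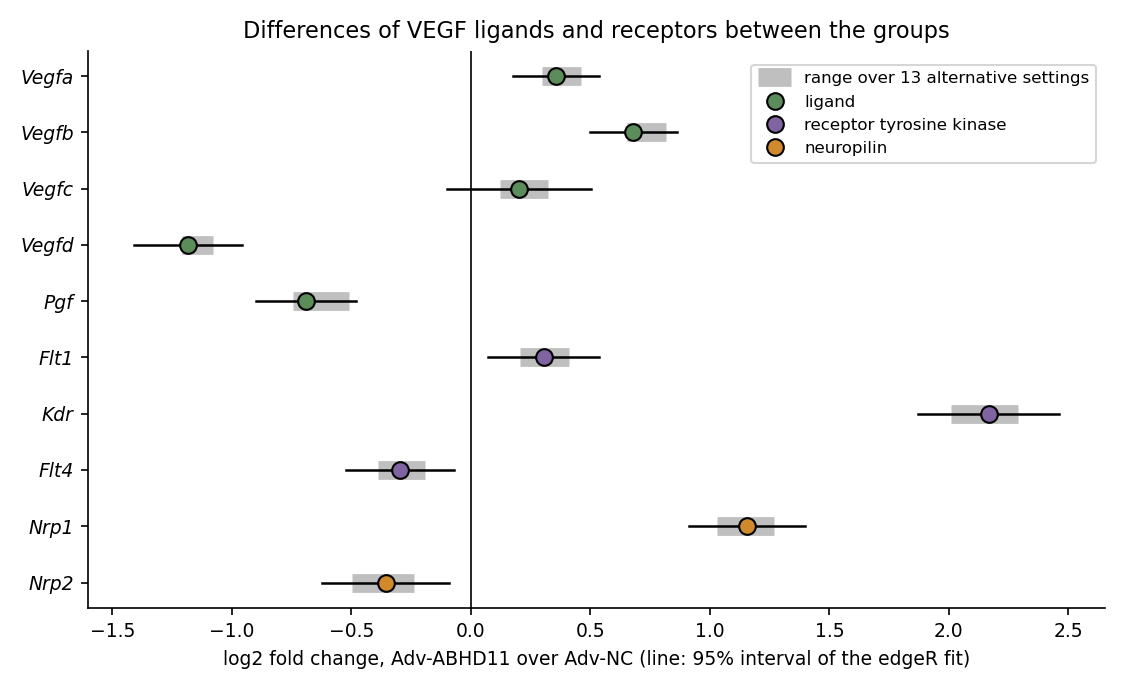
Log2 fold change of each member, Adv-ABHD11 over Adv-NC, with its 95% interval (line) and the range over 13 alternative settings (grey band). Kdr at 2.17 and Vegfd at -1.18 mark the ends, no band crosses 0, and the interval of Vegfc does.

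The make-up of the ligand and receptor pools differed between the groups, and apart from Vegfc no share overlapped. Kdr made up 46.6 ± 1.37% of the summed CPM of the 3 receptor tyrosine kinases with Adv-ABHD11 and 16.6 ± 1.78% with Adv-NC (SD, n = 3 each). Flt4 made up 21.5 ± 1.09% with Adv-ABHD11 and 42.3 ± 1.89% with Adv-NC. Flt1 made up 31.8 ± 1.47% with Adv-ABHD11 and 41.1 ± 0.582% with Adv-NC, so that Kdr held the largest share of counts with Adv-ABHD11 and the smallest with Adv-NC. Among the ligands, Vegfb held 35.5 ± 2.23% of the summed CPM with Adv-ABHD11 and 25.7 ± 0.632% with Adv-NC. Vegfd held 4.32 ± 0.284% with Adv-ABHD11 and 11.4 ± 0.278% with Adv-NC. Pgf held 7.99 ± 0.104% with Adv-ABHD11 and 15.0 ± 0.914% with Adv-NC. Vegfa stayed the largest part in both groups, at 48.8 ± 2.47% with Adv-ABHD11 and 44.4 ± 1.81% with Adv-NC. These shares are of counts and favour long transcripts, and they are descriptions without a test.

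**Figure D3:**
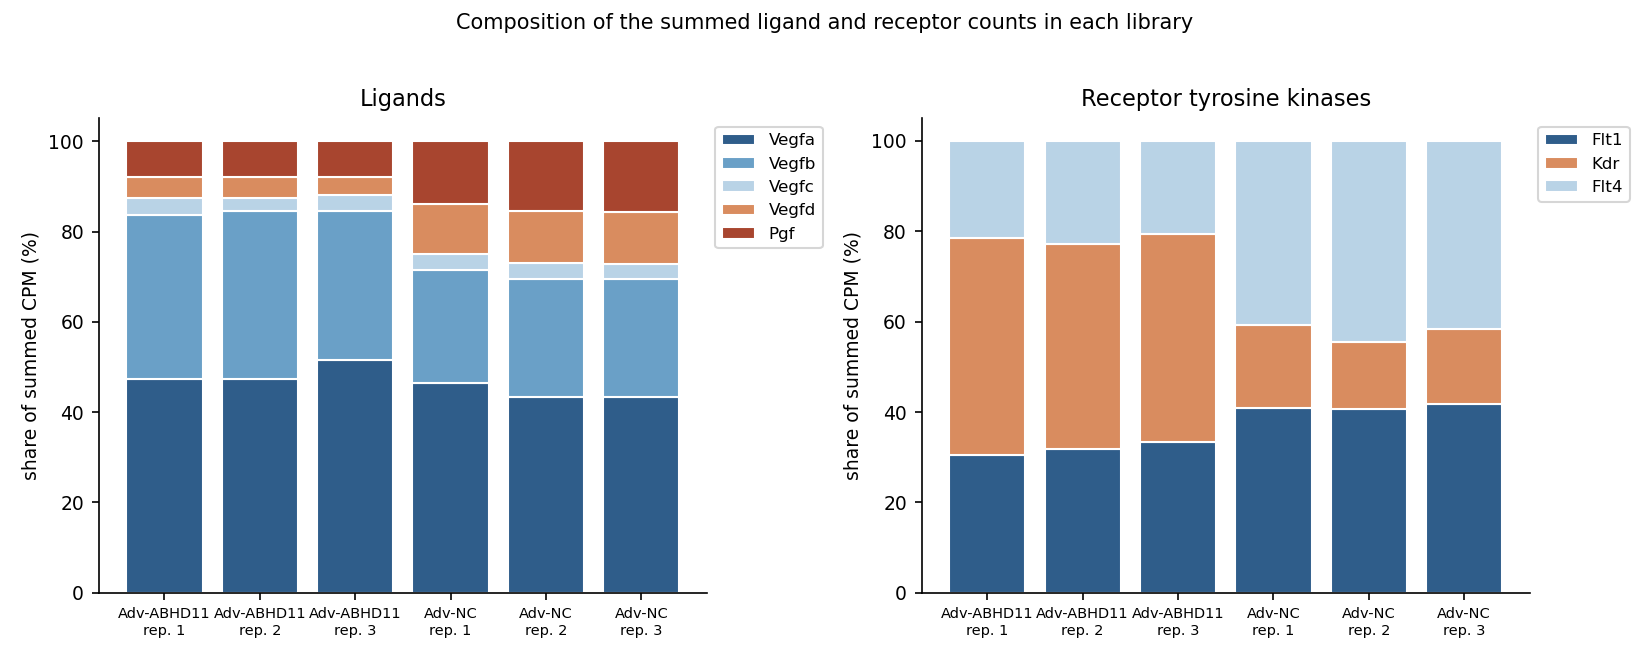
Share of each gene in the summed CPM of the ligands (left) and of the receptor tyrosine kinases (right), in percent, per library. Kdr fills 45.5% to 48.2% of the receptor bar in the Adv-ABHD11 libraries and 14.8% to 18.4% in the Adv-NC libraries.

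Pairs of members were compared as ratios within each library, which removes scaling between libraries. The Kdr to Flt1 ratio was 1.59, 1.43 and 1.39 with Adv-ABHD11, against 0.45, 0.364 and 0.395 with Adv-NC, so that the order of the 2 levels was reversed, as it was per kilobase below. The ratio was 3.65-fold higher with Adv-ABHD11 and did not overlap between the groups (two-sided exact permutation test, p = 0.1, the smallest p that 3 against 3 allows, and 0.129 adjusted over 9 ratios). The Nrp1 to Nrp2 ratio was 2.44, 2.23 and 2.16 with Adv-ABHD11 and 0.783, 0.851 and 0.772 with Adv-NC (exact permutation p = 0.1). The Vegfa to Vegfb ratio was 1.38 ± 0.161 with Adv-ABHD11 and 1.73 ± 0.114 with Adv-NC (SD, n = 3 each, exact permutation p = 0.1). The Vegfa to Flt1 ratio was 4.33 ± 0.369 with Adv-ABHD11 and 4.19 ± 0.366 with Adv-NC, with overlapping groups (exact permutation p = 0.7, adjusted 0.787).

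Ligands were set against receptors per kilobase, since receptor transcripts are longer. With the exon length of each gene in GENCODE M21, summed ligand CPM per kilobase was 9.86, 12.2 and 11 times that of the receptor tyrosine kinases with Adv-ABHD11, against 13.5, 16.3 and 14.2 times with Adv-NC. The Adv-ABHD11 libraries lay below all Adv-NC libraries, also with the length of the longest transcript (8.75 ± 0.956 with Adv-ABHD11 and 11.8 ± 1.23 with Adv-NC). The summed CPM of the receptor tyrosine kinases was 122 ± 14.9 with Adv-ABHD11 and 76.4 ± 7.71 with Adv-NC, and that of the ligands was 343 ± 6.78 with Adv-ABHD11 and 295 ± 8.9 with Adv-NC. The summed CPM of the neuropilins was 113 ± 15.2 with Adv-ABHD11 and 79.3 ± 11.8 with Adv-NC. The receptor sum thus differed more than the ligand sum, 1.6-fold against 1.16-fold, with no test made.

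**Figure D4:**
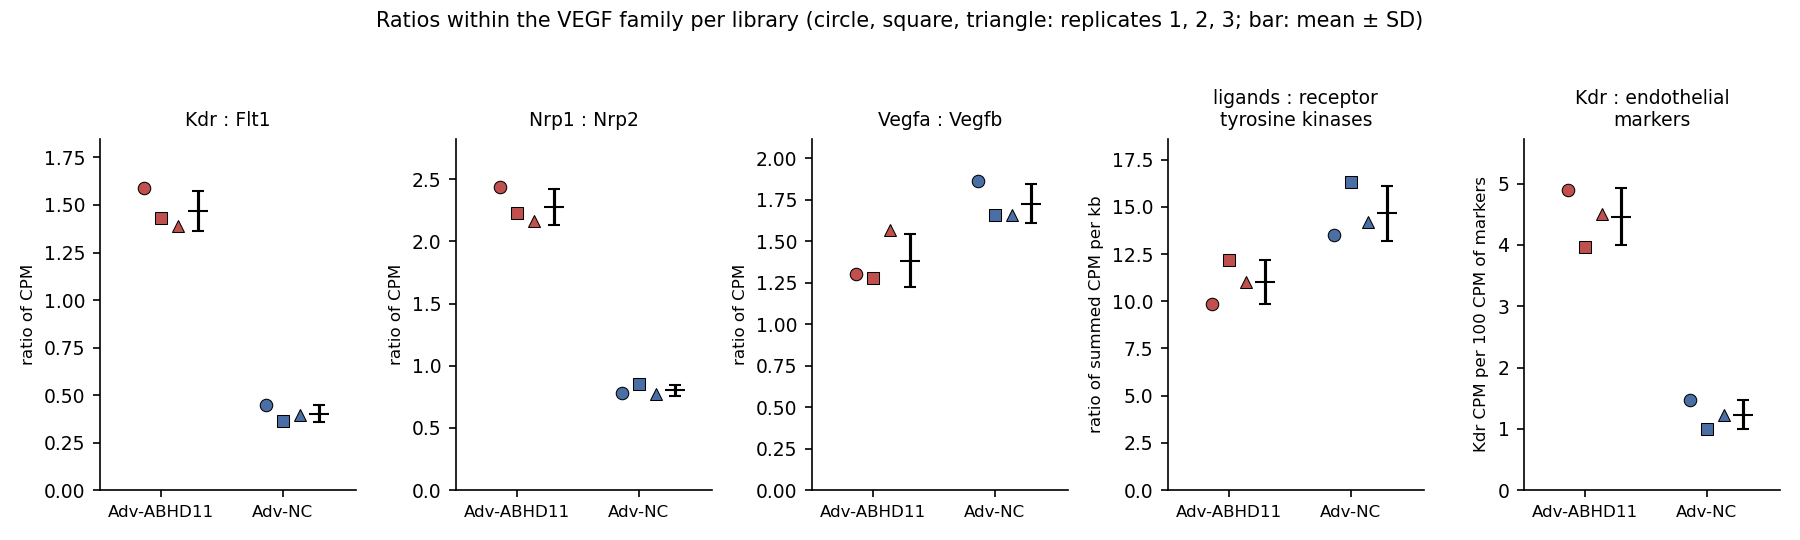
Ratios per library with the mean and SD of each group; all axes start at 0, the ligand to receptor ratio uses CPM per kilobase of exon, and the last panel gives Kdr CPM per 100 CPM of endothelial markers. The Adv-ABHD11 libraries lie above all Adv-NC libraries for Kdr to Flt1, Nrp1 to Nrp2 and Kdr to endothelial markers, and below them for Vegfa to Vegfb and for ligands to receptors.

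Per kilobase of exon, Vegfb was the highest member in both groups, at 75.8 ± 3.95 CPM per kilobase with Adv-ABHD11 and 47.4 ± 2.29 with Adv-NC. Vegfa came next at 39.1 ± 2.48 with Adv-ABHD11 and 30.6 ± 0.954 with Adv-NC. With Adv-ABHD11 the order went on with Pgf, Nrp1 (8.01 ± 1.11), Kdr (6.33 ± 0.959), Vegfd (6.15 ± 0.350), Vegfc, Flt4 (3.19 ± 0.344), Nrp2 (2.91 ± 0.407) and Flt1. There Kdr and Vegfd, Flt4 and Nrp2, and Nrp2 and Flt1 were the neighbours whose means differed by less than the larger of their SDs. With Adv-NC it went on with Pgf, Vegfd (13.96 ± 0.678), Vegfc, Flt4 (3.92 ± 0.251), Nrp2 (3.73 ± 0.623), Nrp1 (3.598 ± 0.452), Flt1 (2.33 ± 0.257) and Kdr (1.41 ± 0.269). There the same held for Pgf and Vegfd, Flt4 and Nrp2, and Nrp2 and Nrp1. With the longest transcript as length, Vegfb and Vegfa kept the first places, Kdr was again rank 5 with Adv-ABHD11 and rank 10 with Adv-NC, and Nrp1 was rank 3 with Adv-ABHD11 and rank 5 with Adv-NC.

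Receptor levels in a whole culture depend on how much endothelial RNA it holds, and fewer cells of a type cannot be told apart from less RNA per cell. Of 20 endothelial markers, 12 were higher and 3 lower with Adv-ABHD11, or 75.0% called, against 59.3% of all tested genes. Their median log2 fold change was 0.66. Named by the smallest adjusted p, the transcription factor Sox18 rose 10.5-fold, the fatty acid binding protein Fabp4 5.03-fold and the junction protein Pecam1 2.51-fold. The 3 lower were Ly6c1 (2.16-fold), Aqp1 (1.42-fold) and Ptprb (1.31-fold), while Sox17, Ecscr, Egfl7, Cldn5 and Eng did not pass. The summed level of the 20 ran from 1239 to 1353 CPM with Adv-ABHD11 and from 997.7 to 1102 CPM with Adv-NC. It was 1.24-fold higher with Adv-ABHD11, and no marker was at 0. Per 100 CPM of these markers, Kdr was at 4.46 ± 0.469 CPM with Adv-ABHD11 and 1.23 ± 0.236 CPM with Adv-NC, a 3.65-fold ratio (SD, n = 3 each, exact permutation p = 0.1). Nrp1 was at 6.13 ± 0.762 CPM with Adv-ABHD11 and 3.41 ± 0.481 CPM with Adv-NC, a 1.8-fold ratio (exact permutation p = 0.1). Neither pair of groups overlapped. Flt4 was at 2.05 ± 0.113 CPM per 100 with Adv-ABHD11 and 3.12 ± 0.137 with Adv-NC (exact permutation p = 0.1). Nrp2 was at 2.70 ± 0.406 CPM per 100 with Adv-ABHD11 and 4.27 ± 0.737 with Adv-NC (exact permutation p = 0.1). Flt1 was at 3.04 ± 0.244 CPM per 100 with Adv-ABHD11 and 3.04 ± 0.266 with Adv-NC (exact permutation p = 1.0). Eng, an endothelial co-receptor also made by other heart cells, supplied 32.2% of the marker sum with Adv-ABHD11 and 40.0% with Adv-NC. With it left out of the sum, the ratio of the groups was 3.23 for Kdr, 1.59 for Nrp1, 0.886 for Flt1, 0.582 for Flt4 and 0.561 for Nrp2. The sum follows its most abundant markers. Among single markers, Sox18 and Fabp4 rose more than Kdr, which rose 4.49-fold. Erg rose 4.32-fold and Vwf 3.63-fold, and the rest rose less or did not rise.

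Markers of other cells also moved with the groups, and their part in the receptor differences was not tested. The 6 lung capillary endothelial markers had summed levels of 91.95 to 106.9 CPM with Adv-ABHD11 and 24.7 to 28.5 CPM with Adv-NC. Most of both sums was the endothelin receptor Ednrb, at 75.2 CPM with Adv-ABHD11 and 17.3 CPM with Adv-NC on average, 4.35-fold higher. Tmem100 was 11.8-fold higher but passed the filter only through the Adv-ABHD11 libraries. Fibin was 3.36-fold and Tbx2 1.52-fold higher, and Foxf1 did not pass the test. Car4 did not pass the filter and was at 0 in every Adv-NC library. Lung epithelial markers summed to 171.9 to 184.6 CPM with Adv-ABHD11 and 19.0 to 26.7 CPM with Adv-NC. Most of the Adv-NC sum was Hopx, at 21.8, 25.92 and 18.27 CPM in the Adv-NC libraries. Hopx was at 33.72, 36.77 and 32.36 CPM in the Adv-ABHD11 libraries. With Adv-NC, Scgb1a1, Sftpc, Sftpa1, Sftpd, Scgb3a2, Nkx2-1 and Cyp2f2 of 14 listed had 0 counts. Red blood cell transcripts summed to 22.8 to 26.0 CPM with Adv-ABHD11 and 0.313 to 0.648 CPM with Adv-NC, where Hba-a1, Alas2 and Slc4a1 were at 0. Most genes of the lung epithelial and red blood cell lists passed the filter only through the Adv-ABHD11 libraries, and no count of calls is given for them. Of 14 smooth muscle and pericyte markers, 10 were higher and 1 lower, summing to 6585 to 7229 CPM with Adv-ABHD11 and 4649 to 5246 CPM with Adv-NC. Cardiomyocyte markers were abundant in both groups and higher with Adv-ABHD11 (14 of 16, with 0 lower), summing to 44960 to 48030 CPM with Adv-ABHD11 and 25250 to 26750 CPM with Adv-NC. The sarcomere genes Myh7, Ttn and Actc1 rose 7.64-fold, 3.6-fold and 2.18-fold. Fibroblast markers, with 2 of 10 higher and 6 lower, summed to 11080 to 14870 CPM with Adv-ABHD11 and 13980 to 17240 CPM with Adv-NC, so that RNA of other heart cells was present in both groups. The lower fibroblast markers numbered 4 with upper-quartile scaling, library size only, or without Adv-ABHD11 replicate 2 or Adv-NC replicate 1. They numbered 5 without Adv-ABHD11 replicate 3 or Adv-NC replicate 3. With DESeq2, the replicate block or the GC and length correction they numbered 7. Epicardial markers had 1 of 8 higher and 6 lower, and macrophage and leukocyte markers 2 of 12 higher and 3 lower. Called were 78.6% of the smooth muscle and pericyte, 87.5% of the cardiomyocyte and 80.0% of the fibroblast markers. Of the epicardial markers 87.5% were called and of the macrophage and leukocyte markers 41.7%, against 59.3% of all tested genes. No test was made of these shares.

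Of lymphatic endothelial markers, which bear on Flt4 and its ligands, 3 of 6 were tested, 1 higher and 1 lower. That was 66.7% called, against 59.3% of all tested genes. Ccl21a was at 0 with Adv-NC. With no filter, or with DESeq2, all 6 were tested, 3 higher and 1 lower. The 6 summed to 51.6 to 54.0 CPM with Adv-ABHD11 and 179.5 to 206.4 CPM with Adv-NC, a difference carried by Pdpn alone, which averaged 27.1 CPM with Adv-ABHD11 and 172.7 CPM with Adv-NC. Prox1, the lymphatic transcription factor that heart muscle also expresses, was at 20.8 ± 0.822 CPM with Adv-ABHD11 and 18.4 ± 5.25 CPM with Adv-NC (edgeR adjusted p = 0.324). Lyve1, the tested gene called higher, was 5.15-fold higher at a low level. It passed the filter on low counts only through the Adv-ABHD11 libraries. Pdpn, which epicardial cells and fibroblasts can also make, was 6.38-fold lower. The higher members numbered 2 without Adv-ABHD11 replicate 2, Adv-NC replicate 2 or Adv-NC replicate 3, and 3 without Adv-NC replicate 1.

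Hypoxia-inducible genes other than Vegfa were mostly higher. Of 22, 17 were higher and 3 lower with Adv-ABHD11, or 90.9% called, against 59.3% of all tested genes. Their median log2 fold change was 0.69, against 0.35 for Vegfa. The pyruvate dehydrogenase kinase Pdk1 rose 5.11-fold, the mitophagy receptor Bnip3 4.55-fold and the glycolytic regulator Pfkfb3 2.90-fold. The 3 lower were Pfkfb4 (2.03-fold), Slc2a1 (1.84-fold) and Ddit4 (1.28-fold), while Kdm3a and Hk2 did not pass. Of 29 tested regulators of VEGF genes, 13 were higher and 7 lower, or 69.0% called, against 59.3% of all tested genes. Egln3, an oxygen sensor that is itself a HIF target, rose 8.25-fold, Klf2, an endothelial factor induced by flow, was 4.49-fold lower, and Sox18 rose as above. The 3 HIF alpha subunits are named after their values were seen. Epas1, the form prominent in endothelium, was at 30.5 ± 4.04 CPM with Adv-ABHD11 and 12.6 ± 1.99 CPM with Adv-NC (edgeR adjusted p = 2.66e-07). Hif3a was at 5.48 ± 0.431 CPM with Adv-ABHD11 and 0.387 ± 0.169 CPM with Adv-NC. It is among the 13 higher regulators but passed the filter only through the Adv-ABHD11 libraries, so that its p-value is not given. Hif1a was at 103.2 ± 8.75 CPM with Adv-ABHD11 and 98.98 ± 18.2 CPM with Adv-NC (edgeR adjusted p = 0.660).

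Of 22 genes that bind or process VEGF proteins, 7 were higher and 9 lower, and 72.7% were called, against 59.3% of all tested genes. Of the 9 lower, Ccbe1 passed the filter only through the Adv-NC libraries. The inhibitor thrombospondin 1 (Thbs1), which binds Vegfa and restrains angiogenesis, was at 345 ± 36.3 CPM with Adv-ABHD11 and 2307 ± 237 CPM with Adv-NC, 6.68-fold lower. The plasminogen activator Plat was 4.25-fold lower, and the matricellular protein Ccn2, which can bind Vegfa, 3.26-fold lower. Downstream of the receptors, 11 of 40 signalling genes were higher and 15 lower (13 and 10 with upper-quartile scaling), or 65.0% called, against 59.3% of all tested genes. The transcription factor Nfatc1 was 4.31-fold lower and the adaptor Shb, which binds Kdr, 2.41-fold lower, while Pik3r1, a regulatory subunit of PI3-kinase, rose 3.77-fold. Of 13 tested class 3 semaphorins and plexins, the other partners of neuropilins, 4 were higher and 5 lower, or 69.2% called, against the same 59.3%. With so few genes these shares show nothing particular to the lists. Of the 5 lower in the last list, Sema3a passed the filter only through the Adv-NC libraries. Plxnd1, the plexin of endothelial cells, was at 152 ± 17.1 CPM with Adv-ABHD11 and 78.4 ± 9.98 CPM with Adv-NC, its ligand Sema3e was 3.56-fold lower, and Gipc1, which binds the tail of neuropilins, 1.68-fold lower.

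Genes that VEGF signalling induces in endothelium were 10 of 20 higher and 4 lower, or 70.0% called, against 59.3% of all tested genes. With so few genes this share shows nothing particular to the list. Of the 10 higher, Kcne3 passed the filter only through the Adv-ABHD11 libraries. Dll4, the Notch ligand of sprouting tip cells, was at 26.5 ± 1.10 CPM with Adv-ABHD11 and 4.24 ± 1.04 CPM with Adv-NC, 6.24-fold higher. The immediate early receptor Nr4a1 was 24.8-fold lower and the adhesion molecule Vcam1 4.14-fold lower, both of which many cell types induce. Of the 8 angiopoietin, TIE and apelin genes listed, 6 were tested and all 6 were higher, against 29.9% of all tested genes. With no filter 6 were again higher and 0 lower, and 1 further member was lower where it was tested without Adv-NC replicate 3. The peptide Apln rose 3.81-fold, its receptor Aplnr 16.2-fold, to 6.35 CPM with Adv-ABHD11 against 0.385 CPM with Adv-NC, and Angpt2, which loosens vessels, 2.04-fold. Aplnr passed the filter on low counts only through the Adv-ABHD11 libraries. Of the FGF and HGF genes, 2 of 7 were higher and 5 lower, against 29.9% higher and 29.5% lower over all tested genes. Fgf1 was 3.71-fold higher, and the receptor Fgfr1 2.95-fold and Hgf 4.50-fold lower. The 2 higher became 1 without Adv-ABHD11 replicate 1, Adv-NC replicate 2 or Adv-NC replicate 3, and with DESeq2. The 5 lower became 4 with DESeq2, upper-quartile scaling, library size only or the GC and length correction. They also became 4 without Adv-ABHD11 replicate 2, Adv-ABHD11 replicate 3 or Adv-NC replicate 3. The PDGF genes, relatives of the VEGF ligands, had 1 of 6 higher and 3 lower, or 66.7% called, against 59.3% of all tested genes. Pdgfa was 1.55-fold, Pdgfc 1.82-fold and Pdgfra 1.40-fold lower. The 1 higher became 0 without Adv-ABHD11 replicate 3, Adv-NC replicate 2 or Adv-NC replicate 3, and with DESeq2. Some lists share genes, as Sox18, Apln and Angpt2 do here.

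**Figure D5:**
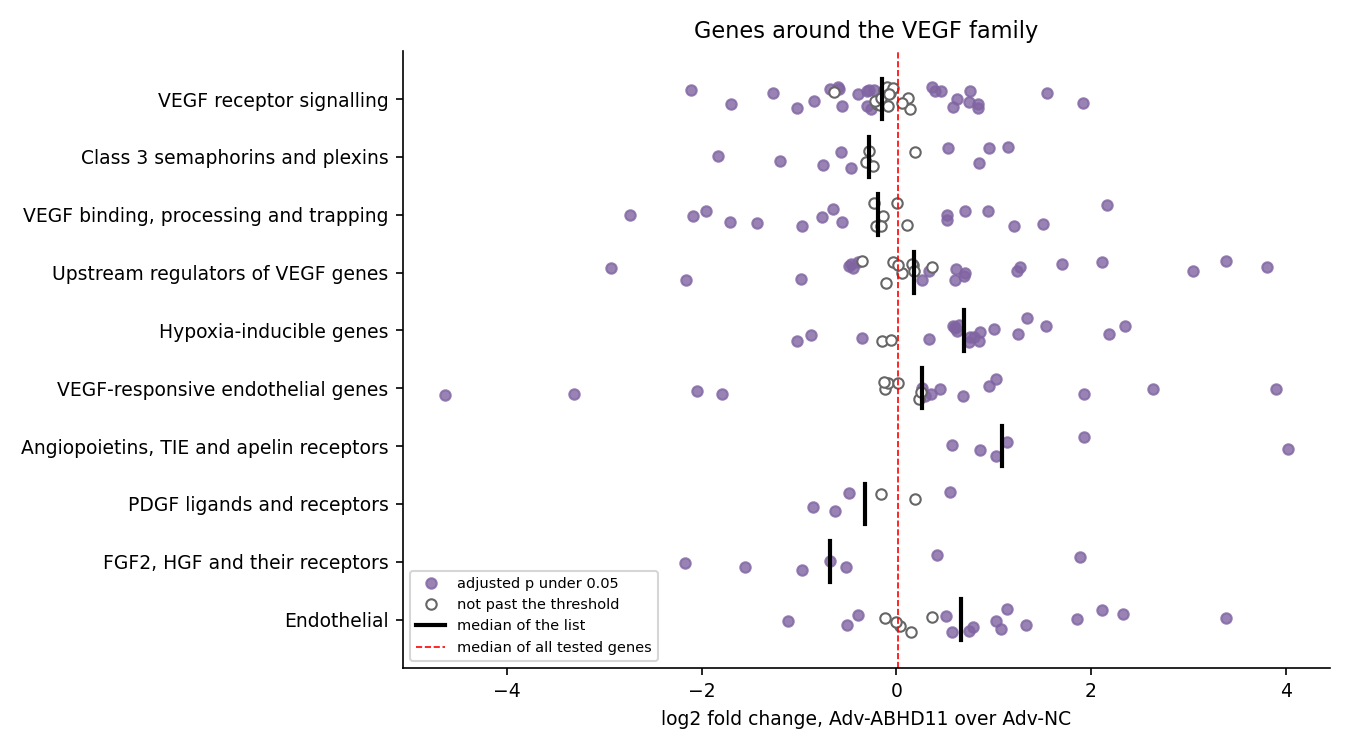
Log2 fold changes, Adv-ABHD11 over Adv-NC, of the tested genes of 10 lists around the VEGF family (filled: adjusted p under 0.05; open: not past it), with each list's median (bar) and the median of all tested genes (dashed, 0.016). The hypoxia-inducible, angiopoietin and endothelial lists have medians of 0.69, 1.08 and 0.66.

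The likeness of whole profiles was measured as the root mean square difference of log2 CPM over the 6 libraries, each gene centred on its own mean, among 10040 genes with a mean above 5 CPM. Kdr had no very close match: the nearest were Alpk2 at 0.0906, Smtnl2 at 0.121 and Itgb6 at 0.138. For Vegfd the nearest were Mical1 at 0.0281, Junb at 0.0341 and Erf at 0.0345. For Vegfb they were Sbk3 at 0.0281, Adck2 at 0.0363 and desmin (Des) at 0.0388. The nearest to Nrp1 was Ank3 at 0.054, to Nrp2 Asxl1 at 0.0555, to Pgf Litaf at 0.0267, to Flt1 Uhrf1bp1 at 0.0315, to Flt4 Zfp592 at 0.0259 and to Vegfc Kifap3 at 0.0416. The 6 libraries share the split between groups, which sets most of this likeness.

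Libraries held 16292756 to 19526874 counts with Adv-ABHD11 and 18219251 to 20338700 with Adv-NC, so that 1 count was worth 0.0492 to 0.0598 CPM. Log2 CPM correlated across genes, which are not independent replicates, with r of 0.991 to 0.994 for 2 libraries of a group and 0.936 to 0.946 for libraries of different groups. Mouse Abhd11 itself was at 38.9 ± 3.25 CPM with Adv-ABHD11 and 33.5 ± 1.87 CPM with Adv-NC (SD, n = 3 each, edgeR adjusted p = 0.0765). The counts need not include the transcript of the vector.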

How the data were processed

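The authors deposited 1 table per library with an expected count per gene symbol, an estimate that is not scaled to library size. The submitters' processing notes name Trimmomatic 0.39, HISAT2, RSEM and DESeq2 and the build mm10, without roles. RNA was extracted with TRIzol, per the labels' protocols. The sources used here do not give the annotation, read filters or strandedness. Each table had 21763 rows. For 22 rows that repeated a symbol, with 0.009% of all counts, the row with most counts was kept. Counts were rounded, since 8.96% to 10.2% of genes above 0 had a fraction.

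Groups were compared in edgeR 4.0.16 (R 4.3.3): filterByExpr (minimum count 10, minimum total 15), TMM scaling, quasi-likelihood F test, Benjamini-Hochberg adjustment over all tested genes. A standard error was the log2 fold change divided by the square root of F. The steps were tested on simulated data. Ratios of 2 members, or of a member to summed markers, were tested by exact permutation in scipy 1.17.1. Coordinates and lengths came from GENCODE M21 (GRCm38, also named mm10), in which 21073 of 21741 symbols were found, and promoters from RefSeq (GRCm38.p6) for all 10 members.

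Members and lists were chosen with earlier results of these data known. Named were the members, up to 3 genes per list with the smallest adjusted p, the 3 genes most like each member, and genes said to be named after their values were seen. For some lists further genes were named, to complete the counts or to give a limit. Not all of the most-like genes are printed, and those of Vegfa are not reported here. Same-numbered libraries were not paired by the labels. Alternatives were DESeq2 1.42.0, other scalings, no filter, a replicate block, each library left out and, added after seeing the data, correction for GC and length trends per library and a marker sum without Eng.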

Additional observations from a re-analysis of the deposited data

How the results depend on the processing

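Over 13 alternatives, Kdr, Nrp1, Vegfa, Vegfb, Vegfd and Pgf passed the threshold in every one with the same direction, Vegfc passed in 0, Flt1 in 10, Nrp2 in 8 and Flt4 in 7. No member changed sign. The higher members numbered 5, or 4 to 5 when 1 library was left out. The lower members numbered 4, but 2 with upper-quartile scaling or library size only, and 2 to 4 when 1 library was left out (2 without Adv-ABHD11 replicate 2, Adv-NC replicate 1 or Adv-NC replicate 3); in each case with 2, Flt4 and Nrp2 dropped out. Upper-quartile scaling moved the median log2 fold change of all tested genes by 0.107, to 0.124, and relative to that median Flt4 was at -0.314 and Nrp2 at -0.373, as with TMM scaling. A change of scaling moves every gene by nearly the same amount, so that likeness was fixed in advance and does not bear on the calls. With the endothelial marker sum taken without Eng, the log2 difference was -0.175 for the Flt1 ratio and -0.78 for Flt4, against 0.00044 and -0.604. It was 1.69 for Kdr, 0.671 for Nrp1 and -0.834 for Nrp2, against 1.87, 0.847 and -0.659. All receptor ratios moved by the same amount, since only the shared sum changed. The move exceeded the spread for Flt1 and Flt4 only. No ratio moved beyond its spread when 1 library was left out. With the replicate block, an alternative pairing libraries by number, 5 members were higher and 4 lower, and 3932 genes were higher and 3906 lower over all genes, against 3821 and 3768. Deviations of same-numbered libraries correlated at 0.0105, 0.29 and -0.143 across genes, and only replicate 2 correlated best with its own number, so the numbers were not taken to pair libraries. With 3 libraries a group, an exact permutation test cannot go below p = 0.1. Vegfc had the fewest counts over all libraries together and the largest standard error of the members, and a rise of up to 1.42-fold lies within its interval.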
